A study of Mus musculus with 8 samples.

Results

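The ID proteins (inhibitors of differentiation) are the products of the genes ID1, ID2, ID3 and ID4, and these 4 genes were taken by symbol from the 13937 genes of the deposited count table. All 4 were in the table, and all 4 passed the filter on low counts, with 13509 genes tested in all. The study asked how astrocytes respond to transforming growth factor β (TGF-β) with and without RGC-32, a cell cycle regulator encoded by RGCC. Bulk RNA was sequenced from primary astrocytes cultured for 2 weeks from the brains of 1-day-old C57BL/6 pups, with the meninges removed and loose cells shaken off. The WT control and WT TGF-β groups came from wild-type pups, and the KO control and KO TGF-β groups from RGC-32 KO (knockout) pups, here KO for short. All cultures were deprived of serum overnight, and the TGF-β groups then received TGF-β at 10 ng/ml for 24 h while the control groups did not. Each group had 2 libraries from biological replicates, which is a small number for estimating spread. The deleted part of the gene and the pooling of pups are not given in the sources used here.

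ID proteins have a helix-loop-helix domain but no basic region, so they can pair with other helix-loop-helix proteins and cannot themselves bind DNA. By pairing with the ubiquitous E proteins they keep these away from lineage factors of the basic helix-loop-helix (bHLH) class, and so hold back differentiation. Their genes are classical targets of bone morphogenetic protein (BMP) signaling through SMAD1, SMAD5 and SMAD9. In the brain they are known from neural stem cells and the astrocyte lineage, while TGF-β can either raise or lower ID genes depending on the cell.

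In GENCODE release M21 (GRCm38), ID1 (ENSMUSG00000042745) lies on the plus strand at chr2:152736251-152737410 and ID3 (ENSMUSG00000007872) on the plus strand at chr4:136143497-136145755. ID2 (ENSMUSG00000020644) lies on the minus strand at chr12:25093799-25097140, and ID4 (ENSMUSG00000021379) on the plus strand at chr13:48261228-48266026. All 4 are annotated as protein coding. The longest transcript has 1160 bases for ID1, 1969 for ID2, 1278 for ID3 and 3849 for ID4.

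The 250 bases before the RefSeq start site were searched for short letters tied to the factors named here, in the RefSeq promoter table (GRCm38.p6), which matched ID2, ID3 and ID4 but not ID1. The RefSeq start sites of ID2 and ID3 lie inside the GENCODE genes, so the windows of ID2 and ID3 lie within the gene positions given above. Both strands were searched. GGCGCC, the core of a BMP-SMAD element, was found in the ID2 and ID4 windows and in 9.59% of all 32851 promoters. CAGAC, a SMAD-binding sequence, was found at 2 places in the ID3 window, in neither of the ID2 and ID4 windows, and in 42.2% of all promoters. The stretches that hold these letters are shown 5′ to 3′ on the strand of the gene, with GGCGCC, or CAGAC on either strand, in capitals. They run from chr12:25096254-25096342 (minus strand) for ID2, from chr4:136143643-136143671 and chr4:136143742-136143770 (plus strand) for ID3, and from chr13:48260866-48261115 (plus strand) for ID4.
ID2: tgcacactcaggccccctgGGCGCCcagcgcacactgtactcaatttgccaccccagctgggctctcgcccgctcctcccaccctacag
ID3, upstream place: tgtcctcggcgtCAGACcagcctaaggaa
ID3, downstream place: ggacccttggcgGTCTGttttgaataagg
ID4: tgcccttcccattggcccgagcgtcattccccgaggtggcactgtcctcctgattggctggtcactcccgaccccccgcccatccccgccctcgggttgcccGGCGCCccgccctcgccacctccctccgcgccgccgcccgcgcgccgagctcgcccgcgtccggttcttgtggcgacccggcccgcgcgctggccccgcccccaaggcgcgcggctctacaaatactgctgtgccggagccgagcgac

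The E-box CANNTG, to which bHLH dimers bind, was present in the ID2 window only, against 66.2% of all promoters. CCAAT occurred at 3 places in ID2 and at 2 in ID4, against 33.8% of promoters with at least 1. CGTCA, a half-site for factors of the CREB and ATF family, occurred at 1 place each in ID3, where it overlaps the upstream CAGAC, and in ID4, against 17.8% of promoters. TATAAA was in none of the 3 windows and in 12.4% of all promoters. Such matches describe letters in these windows and were not read as binding sites.

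As a check of genotype, the WT control libraries held 80 and 94 RGCC reads and the KO control libraries 61 and 28. The WT TGF-β libraries held 215 and 362, and the KO TGF-β libraries 64 and 26. RGCC reads were lower in KO than in WT at the same treatment, but not at 0. The log2 fold change of KO against WT in control was -0.97 (95% confidence interval -2.2 to 0.26, adjusted p = 0.78 by edgeR). With TGF-β the log2 fold change was -2.54 (-3.65 to -1.42, adjusted p = 0.133 by edgeR). By the limits given below, RGCC was not called lower in either comparison. Counts on genes ran from 14920561 to 18956038 per library. All 10 markers of astrocytes were in the table, with a summed level of 3585 to 6005 CPM (counts scaled to a common library size by the trimmed mean of M values, TMM) in the 8 libraries. The 12 microglial markers were also present, with a sum of 1165 to 1666 CPM.

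TGF-β lowered all 4 ID genes in WT astrocytes. ID4 and ID3 fell to under 50% of their control level, and ID1 and ID2 fell less. A gene was called where its adjusted p was under 0.05 and its absolute log2 fold change was at least 0.6, the fold limit the study used. By edgeR's quasi-likelihood test with Benjamini-Hochberg adjustment over all genes tested, 4 of 4 ID genes were called lower and 0 were called higher. Over all genes tested, 5.65% were called lower and 7.72% higher. The median log2 fold change of the 4 ID genes was -0.97, against -0.0048 over all genes tested.

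ID3 is known as an early-response gene to serum. Its CPM was 268.7 and 290.8 in WT control and 119.9 and 132.1 in WT TGF-β. Both WT TGF-β libraries lay below both controls, by far more than the replicates differed. The level under TGF-β was 45.0% of control (log2 fold change -1.15 with SE 0.0816 and adjusted p = 0.000143 by edgeR).

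ID4, which is prominent in neural stem cells and the astrocyte lineage, had 165.7 and 224.4 CPM in WT control and 90.7 and 77.2 in WT TGF-β. The groups did not overlap, although the control replicates of ID4 differed by 1.35-fold, the widest replicate ratio of the family. The level under TGF-β was 43.1% of control (log2 fold change -1.22 with SE 0.173 and adjusted p = 0.00189 by edgeR). The 95% confidence interval of this change, from -1.62 to -0.81, was the widest of the 4.

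ID1, a common readout of BMP signaling, had 97.3 and 90.5 CPM in WT control and 53.8 and 54.2 in WT TGF-β. The WT TGF-β libraries were close to each other and both below control. ID1 stood at 57.5% of control under TGF-β (log2 fold change -0.80 with SE 0.0646 and adjusted p = 0.000217 by edgeR).

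ID2, known for its binding of the retinoblastoma protein in addition to E proteins, had 130.8 and 131.0 CPM in WT control and 76.1 and 80.0 in WT TGF-β. The 2 control libraries were almost equal, and the WT TGF-β libraries lay below them. ID2 stood at 59.6% of control (log2 fold change -0.75 with SE 0.0563 and adjusted p = 0.000175 by edgeR). In all 4 ID genes the WT TGF-β and WT control libraries did not overlap in the lower direction, as in 33.7% of all genes tested. With 2 libraries in each group, absence of overlap is therefore common.

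**Figure D1:**
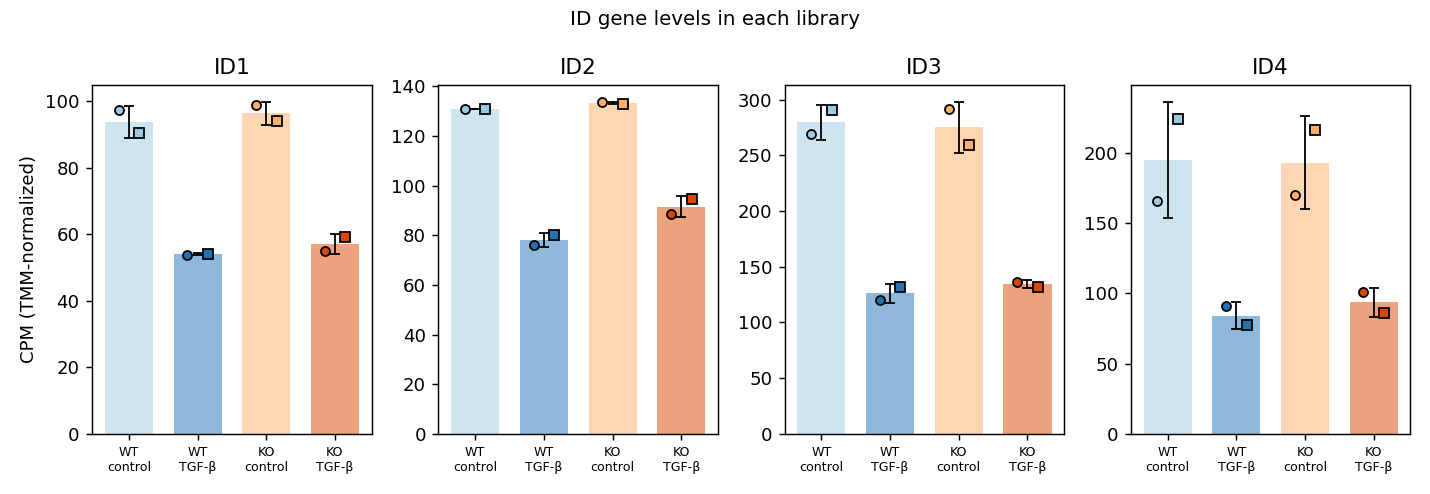
CPM of ID1, ID2, ID3 and ID4 in each of the 8 libraries, with circles for replicate 1, squares for replicate 2, bars for the group mean and error bars for the SD (n = 2); each panel has its own axis from 0. In every panel both TGF-β libraries of a genotype lie below both of its control libraries, and the widest replicate gaps are those of ID4 in the control groups.

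The fall lay toward the low end of all changes, and its rank among the genes called lower was moderate. Of the 13509 genes tested, 1.69% had a lower log2 fold change than ID4 in WT, and the shares for ID3, ID1 and ID2 were 1.93%, 4.83% and 5.71%. Among the 763 genes called lower in WT, ID4 stood at position 162, ID3 at 186, ID1 at 461 and ID2 at 541. By p, the order within the family differed, with ID3 at position 70 of all genes, ID2 at 90, ID1 at 125 and ID4, whose replicates differed most, at 859. As these are bulk libraries, fewer cells of a type that expresses an ID gene and less ID RNA per cell cannot be told apart.

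In KO astrocytes the 4 ID genes also had lower levels with TGF-β, and 3 of 4 were called lower. The fourth, ID2, passed the adjusted p but not the fold limit. No ID gene was called higher. Over all genes tested in KO, 4.93% were called lower and 6.61% higher. The median log2 fold change of the 4 ID genes was -0.90, against 0.0031 over all genes.

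ID3 had 291.5 and 259.0 CPM in KO control and 136.6 and 131.5 in KO TGF-β. Both TGF-β libraries lay well below the lower of the 2 controls. The level was 48.7% of control (log2 fold change -1.04 with SE 0.0816 and adjusted p = 0.000233 by edgeR).

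ID4 had 169.7 and 216.3 CPM in KO control and 101.0 and 86.3 in KO TGF-β. The groups did not overlap, and the control replicates again differed more than those of the other ID genes, by 1.27-fold. ID4 stood at 48.5% of control (log2 fold change -1.04 with SE 0.173 and adjusted p = 0.00429 by edgeR).

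ID1 had 98.9 and 94.0 CPM in KO control and 55.1 and 59.2 in KO TGF-β. Both TGF-β libraries were below both controls. ID1 stood at 59.2% of control (log2 fold change -0.76 with SE 0.0646 and adjusted p = 0.000322 by edgeR).

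ID2 had 133.7 and 132.9 CPM in KO control and 88.4 and 94.4 in KO TGF-β. The groups did not overlap, but the TGF-β level, at 68.6% of control, was nearer to control than in any other ID comparison within a genotype. The log2 fold change was -0.54 (SE 0.0561, 95% confidence interval -0.67 to -0.41, adjusted p = 0.000633, edgeR). ID2 was called lower under 4 of the alternatives, where its log2 fold change passed the limit: -0.63 with upper quartile normalization, -0.68 and -0.69 with the deposited per-length values and -0.61 without KO TGF-β replicate 2. The median of all genes tested in KO also moved down, from 0.0031 to -0.0798 with upper quartile normalization. With the per-length values it was -0.1142 and -0.1293. In all 4 ID genes the groups of KO did not overlap in the lower direction, as in 32.9% of all genes tested.

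**Figure D2:**
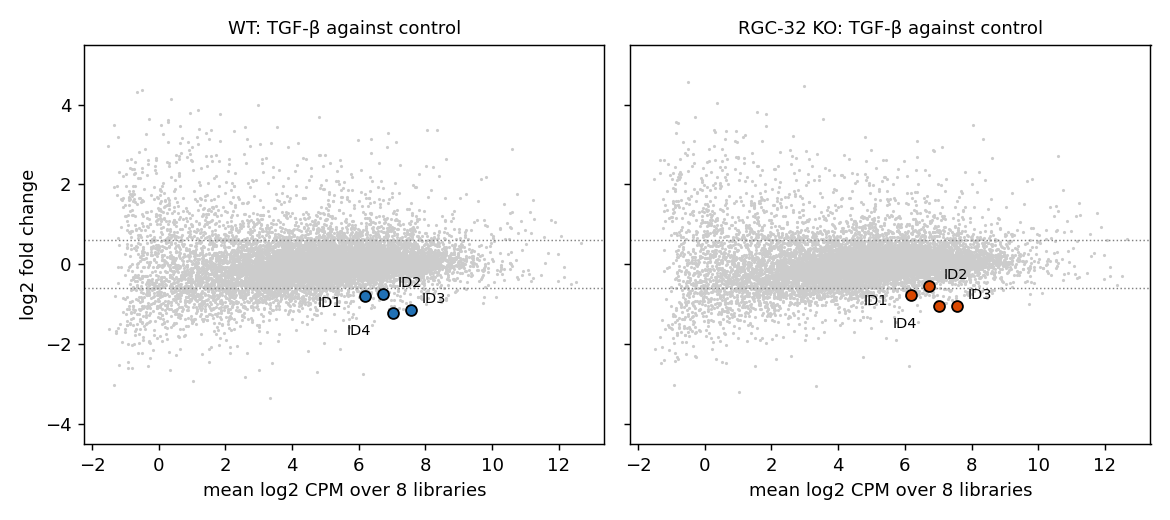
Log2 fold change of TGF-β against control for every gene tested (grey), against its mean log2 CPM over the 8 libraries, in WT (left) and KO (right), with the ID genes as large points and dotted lines at the fold limit of 0.6 in either direction. The ID genes lie among well-expressed genes and on the lower side, and only ID2 in KO lies inside the dotted lines.

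Without TGF-β, the ID genes were close to equal in both genotypes. By edgeR, 0 of 4 ID genes were called in KO control against WT control, where 0.037% of all genes tested were called in either direction. No ID gene had an unadjusted p under 0.05 in this comparison, and DESeq2 and limma-voom also called 0. The log2 fold changes were 0.04 for ID1 (95% confidence interval -0.11 to 0.19), 0.03 for ID2 (-0.10 to 0.15), -0.02 for ID3 (-0.21 to 0.16) and -0.02 for ID4 (-0.40 to 0.37). These intervals contain no change as large as the fold limit. Their signs are not settled, since ID1, ID3 and ID4 changed sign when 1 library was left out. Only ID2 had groups without overlap, 133.7 and 132.9 CPM against 130.8 and 131.0, and 32.8% of all genes tested had none.

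With TGF-β, the fitted level of each ID gene in KO was 1.06- to 1.17-fold that in WT, and no difference passed the test. Again 0 of 4 ID genes were called by edgeR, against 0.0444% of all genes in either direction, and 0 by DESeq2 and limma-voom. An unadjusted p under 0.05 by edgeR was found in 1576 of all 13509 genes tested, and of the ID genes in ID2 only. Its 88.4 and 94.4 CPM in KO TGF-β lay above the 76.1 and 80.0 in WT TGF-β, 1.17-fold (95% confidence interval 1.07 to 1.28, adjusted p = 0.217 by edgeR). Over the alternatives the adjusted p of ID2 ran from 0.094 to 0.915.

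ID1 did not overlap either, with 55.1 and 59.2 CPM in KO TGF-β against 53.8 and 54.2 in WT TGF-β, but its adjusted p was 0.679 in edgeR. ID3 and ID4 overlapped, with log2 fold changes of 0.09 (95% confidence interval -0.10 to 0.28) and 0.16 (-0.25 to 0.56). Of all genes tested, 46.3% had groups without overlap in this comparison, so the 2 of 4 ID genes without overlap are no result about the family.

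The difference of the TGF-β responses was tested directly as an interaction of genotype and TGF-β. It was positive in all 4 ID genes, meaning a smaller fall in KO, but it was called in 0 of 4. Its sign is not settled for ID1, where it turned without WT control replicate 1 or KO TGF-β replicate 2, nor for ID4, where it turned without WT control replicate 2. Over all genes tested, 0 genes, or 0%, were called by edgeR, and also by DESeq2 and limma-voom, with 381 genes at an unadjusted p under 0.05 in edgeR. ID2 was one of these, with a difference of 0.20 on the log2 scale (95% confidence interval 0.02 to 0.39, adjusted p = 1 by edgeR).

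For ID1 the difference was 0.04 (95% confidence interval -0.17 to 0.25), for ID3 0.11 (-0.15 to 0.38) and for ID4 0.17 (-0.39 to 0.73). The intervals of ID1, ID2 and ID3 hold no difference past the fold limit, and that of ID4 reaches past it on the positive side. ID2 was thus called in WT and not in KO, while the difference between the genotypes did not pass the test. The interaction shares libraries with the other comparisons and is no independent measurement.

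**Figure D3:**
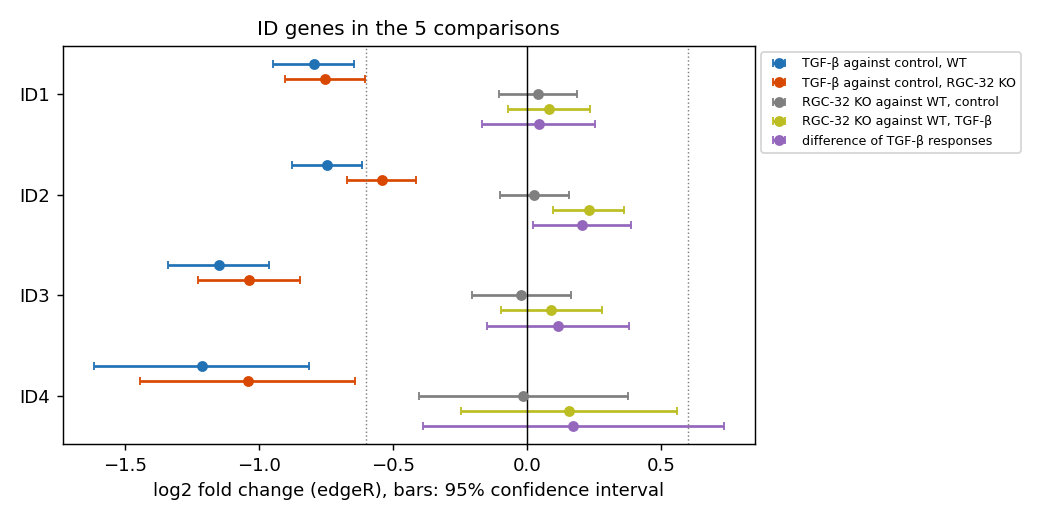
Log2 fold change of each ID gene (points, edgeR) with its 95% confidence interval (bars) in the 5 comparisons, with dotted lines at the fold limit of 0.6 and a solid line at 0. The TGF-β responses of both genotypes lie wholly below 0, and the differences between genotypes cluster near 0, with the widest intervals for ID4.

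Levels of different genes were compared only per transcript length, in the deposited FPKM (fragment counts divided by the length of the transcript and the size of the library). ID3 led in every library, with 316.6 and 329.5 FPKM in WT control, 127.7 and 141.8 in WT TGF-β, 348.3 and 306.3 in KO control and 140.9 and 147.4 in KO TGF-β. It held 44.5% to 52.9% of the summed ID FPKM. No other ID gene came near ID3 in any library.

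ID1 and ID2 came next and were close to each other. In WT control, ID1 was 112 ± 6.65 FPKM and ID2 105 ± 1.23 (SD, n = 2), and in WT TGF-β ID1 was 59.0 ± 1.06 and ID2 59.4 ± 0.118. In KO control, ID1 was 118 ± 5.45 and ID2 108 ± 0.0694, and in KO TGF-β ID1 was 65.7 ± 5.48 and ID2 66.9 ± 5.09. ID1 was above ID2 in both control groups, and the pair overlapped in both TGF-β groups. This closeness belongs to the FPKM scale, since in CPM per kilobase of the longest transcript ID1 was above ID2 in every library and the pair overlapped in KO TGF-β only.

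ID4, whose transcript is the longest, was lowest per length. Its FPKM was 77.9 and 102.6 in WT control, 41.6 and 32.6 in WT TGF-β, 80.9 and 102.9 in KO control and 44.3 and 36.9 in KO TGF-β. ID4 lay below every ID1 and ID2 value of its group, but its distance from ID2 was smaller than the SD of ID4 (17.5) in WT control and about equal to it (15.5) in KO control.

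The summed FPKM of the 4 genes was 631 ± 21.2 in WT control and 290 ± 4.56 in WT TGF-β (SD, n = 2), a ratio of 0.460. In KO it was 645 ± 19.7 in control and 317.4 ± 10.0 in TGF-β, a ratio of 0.492. Both falls are larger than the spread of the replicates, and ID3 carried most of the drop in FPKM.

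**Figure D4:**
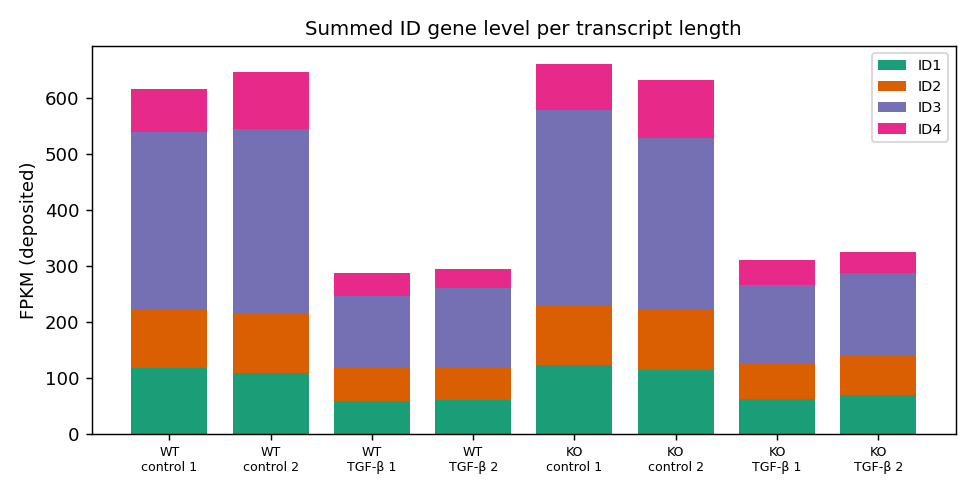
Deposited FPKM of the 4 ID genes stacked for each of the 8 libraries, so that the height of a bar is the summed ID level per transcript length. The control bars, with group means of 631 and 645, stand above all TGF-β bars, with means of 290 and 317.4, and ID3 is the largest segment in each.

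ID4 shares its locus with antisense RNA. A330033J07RIK, annotated as antisense on the minus strand at chr13:48044231-48262623, overlaps 1396 bases of ID4, and its exons share 82 of the 3849 exon bases of ID4. GM49291, a lincRNA on the same strand, shares 171 exon bases. The libraries were unstranded, so reads of ID4 and of these RNAs cannot be told apart where they overlap. A330033J07RIK had 252 to 747 counts per library, which was 19.5% to 21.2% of the ID4 count in every library. It changed by -1.15 (log2) in WT and -1.06 in KO, near the values of ID4.

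The same antisense RNA was the gene whose pattern was most like ID4. Likeness was measured as the root mean square difference in log2 CPM over the 8 libraries, after centring each gene, among 11656 genes with at least 50 counts in every library. For ID4 it was 0.0461 with A330033J07RIK, 0.0838 with ZMYND10 and 0.106 with KIF6. For ID3 the nearest were CDKN1C (0.0742), METTL7A1 (0.0829) and FBXO2 (0.0972). For ID1 they were GSTM1 (0.0492), TTC25 (0.060) and PALM3 (0.0605), and for ID2 FAM229B (0.0418), FBXO16 (0.0496) and ALDH9A1 (0.0526). No ID gene was among the 3 nearest of another. Within the family ID1 and ID2 were most alike (0.0905, position 26 of all genes for ID1), followed by ID1 and ID3 (0.179) and ID3 and ID4 (0.186), and ID2 and ID4 least (0.298).

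The E proteins TCF3 (E12 and E47), TCF4 (E2-2) and TCF12 (HEB), with which ID proteins pair, were not called in either genotype (0 of 3). Among all genes tested, 7.72% were called higher and 5.65% lower in WT, and 6.61% and 4.93% in KO. These shares are the background for each list below, and 1 call in a short list is no result about that list. TCF4 had 205.9 to 225.4 CPM in the WT libraries with or without TGF-β. The log2 fold changes in WT were -0.09, 0.02 and 0.06 for TCF3, TCF4 and TCF12, and in KO 0.09, -0.07 and 0.13. Their directions are not settled, since TCF4 and TCF12 in WT and TCF3 in KO changed sign under another scaling.

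Of 23 lineage bHLH factors on the list, the class of proteins held back by ID proteins, 9 were measured. In WT, 2 were called higher and 1 lower, and in KO 1 was called higher and 1 lower. SCX, the tendon factor scleraxis, rose from 2.52 and 2.33 CPM to 13.9 and 18.9 in WT, a log2 fold change of 2.75 (adjusted p = 0.000138, edgeR), and by 2.87 in KO (adjusted p = 0.000178, edgeR). ATOH8 fell in both, with log2 fold changes of -1.66 and -1.42. TWIST2, the second gene called higher in WT (0.66, adjusted p = 0.0451, edgeR), had fewer than 4 CPM in every library and lost its call whenever any 1 library was left out and in 6 of 11 other settings. OLIG2, a factor of neural progenitors and the oligodendrocyte lineage, was not called.

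The HES and HEY repressors are bHLH proteins, some of which bind ID proteins. The list of 9 tested also holds BHLHE40 and BHLHE41, which are neither HES nor HEY genes. In WT 2 were called higher, and in KO 2 higher and 2 lower. The 2 called higher were BHLHE40 and BHLHE41 in both genotypes, and no HES or HEY gene was called higher. BHLHE40, a repressor of the circadian clock, rose from 52.4 and 78.0 CPM to 214.5 and 190.0 in WT, a log2 fold change of 1.63, against 1.62 in KO. BHLHE41 had log2 fold changes of 0.69 and 0.62, and its call was lost on the FPKM scale in both genotypes, with upper quartile normalization in KO, and without replicate 2 of either WT group (in WT) or of either KO group (in KO). HES5 and HES7, called lower in KO, had at most 1.09 and 3.25 CPM, and both calls were lost in DESeq2 and without any 1 of the 4 KO libraries. HES1 had 0.34 and 0.37 and was not called.

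The BMP pathway, the classical input to ID genes, moved in several directions. Of 5 ligands tested, 1 was called higher and 2 lower in WT, and 1 higher and 1 lower in KO. BMP7 fell from 14.7 and 18.5 CPM to 6.80 and 6.07 in WT, with log2 fold changes of -1.36 in WT and -1.44 in KO. BMP4 fell by 0.67 on the log2 scale in WT (adjusted p = 0.00739, edgeR), a call that was lost without WT control replicate 2 (-0.45), and had -0.49 in KO, short of the fold limit. BMP6, at 253.0 to 346.3 CPM in the 8 libraries, was not called. GDF6 rose in both genotypes, by 1.65 and 1.59, from about 1 CPM.

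Of 11 BMP antagonists tested, 4 were called higher and 1 lower in WT, and 5 higher and 1 lower in KO. FSTL3, which binds activins and some BMP ligands, rose by 2.75 on the log2 scale in WT and 2.59 in KO. BMPER and FST rose as well, by 1.92 and 1.46 in WT and 2.10 and 1.52 in KO. CHRD was also called higher in KO (0.61), a call lost in 4 of 11 other settings, with values down to 0.17 on the FPKM scale, and without WT control, KO control or KO TGF-β replicate 2. SOSTDC1 fell in both genotypes (-1.15 and -0.76), and noggin (NOG) was not called. The median of the 11 was 0.0826 in WT and 0.16 in KO.

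Of 12 BMP receptors and SMADs, 3 were called higher and 1 lower in each genotype. The shares of all genes tested were 7.72% higher and 5.65% lower in WT, and 6.61% and 4.93% in KO. The receptors BMPR2 (1.03 in WT and 0.83 in KO), ACVR1 (1.17 and 1.14) and the co-receptor ENG (0.91 and 0.85) rose. The call of ENG was lost with FPKM at a pseudocount of 1 and, in KO, without KO control replicate 2 or KO TGF-β replicate 2. SMAD9, a signal transducer of BMP receptors that is itself a target of the pathway, fell from 31.3 and 35.5 CPM to 15.5 and 15.5 in WT, with log2 fold changes of -1.10 and -0.93. SMAD1, SMAD5 and SMAD4 were not called.

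Among 9 other genes known as targets of BMP-SMAD signaling, a list that shares ATOH8, SMAD9, BAMBI, HEY1 and SMAD7 with the other lists, 2 were called higher and 2 lower in each genotype. ATOH8 and SMAD9 fell, as given above. SMAD7, the inhibitory SMAD that TGF-β also induces, rose by 1.35 in WT and 1.16 in KO, and RUNX2 had 0.66 and 0.60, near the fold limit. The KO call of RUNX2 was lost in 7 of 11 other settings and 6 of 8 fits without 1 library, and the WT call in 3 of 11 (down to 0.43) and without WT TGF-β replicate 1. SMAD6, MSX1 and MSX2 were not called. The median was -0.14 in WT and 0.12 in KO, while that of the ID genes was -0.97 and -0.90.

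Of 13 targets of TGF-β itself, 12 were called higher in each genotype and 0 lower. PMEPA1 had log2 fold changes of 2.63 and 2.65, CTGF 1.75 and 1.87, and SKIL, a repressor of SMAD signaling, 1.69 and 1.60. The exception was TGFBI (0.67 and 0.47).

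Of 6 known regulators of ID transcription, 1 was called lower in WT, and 1 higher and 1 lower in KO. ATF3, a stress-induced factor known to repress ID1 together with SMAD3, had 41.6 and 26.2 CPM in WT control and 20.3 and 18.9 in WT TGF-β. The log2 fold changes of ATF3 were -0.79 in WT (adjusted p = 0.0172, edgeR) and -0.70 in KO (adjusted p = 0.0296, edgeR). The ATF3 call in WT was lost without WT control replicate 1 or either WT TGF-β library and with edgeR on 4 libraries, and in KO without any 1 of the 4 KO libraries, with adjusted p up to 0.0865 and 0.139. MYCN was called higher in KO (0.96) at under 4 CPM, a call lost without either KO control library or KO TGF-β replicate 2 and in 5 of 11 other settings (down to 0.29), and EGR1, MYC, SMAD2 and SMAD3 were not called.

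None of 5 genes of ID protein turnover was called in either genotype by edgeR. These included USP1, a deubiquitinase that stabilizes ID proteins, and all 5 also had adjusted p above 0.05. None of 3 pocket proteins was called either, although RBL2 passed the adjusted p in both genotypes (-0.28 and -0.24). Of 6 CDK inhibitors, 1 was called higher and 1 lower in each genotype. CDKN1C (p57) fell from 28.6 and 29.0 CPM to 14.2 and 14.6 in WT, with log2 fold changes of -1.0 and -1.04, and was the gene nearest to ID3. CDKN2A, called higher (0.90 and 0.94), lost its WT call without WT control replicate 2, WT TGF-β replicate 2 or either KO TGF-β library (adjusted p up to 0.239) and its KO call without KO control replicate 2 or either KO TGF-β library (up to 0.198). These calls were also lost in 5 of 11 other settings in WT and 4 of 11 in KO. In the comparisons between genotypes and in the interaction, no gene of these lists was called by edgeR.

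**Figure D5:**
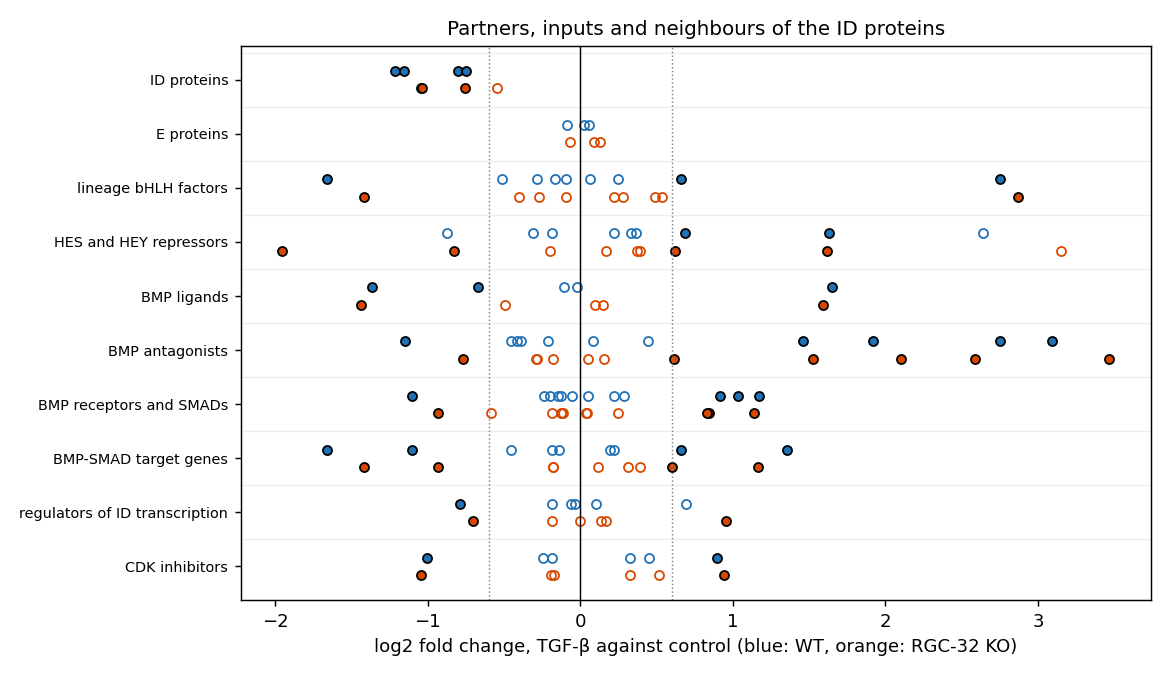
Log2 fold change of TGF-β against control for each measured gene of the ID family and of the lists around it, in WT (blue) and KO (orange), with filled points for genes called and open points for the others, and dotted lines at the fold limit of 0.6. The ID genes lie on the lower side in both genotypes, the E proteins lie near 0, and the BMP lists have genes on both sides.

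Marker genes of several cell types moved with TGF-β alongside the ID genes, and their part in the ID result was not tested. Over all 13509 genes tested, 4450 in WT and 3835 in KO passed the adjusted p alone, in either direction. With the fold limit as well, 7.72% were called higher and 5.65% lower in WT, and 6.61% and 4.93% in KO. Of 10 astrocyte markers, 2 were called lower in each genotype (SLC1A2 and GLUL). By the adjusted p alone, 8 of them passed in WT and 7 in KO, all lower but GJA1. The summed level was 4620 to 4847 CPM in WT control, 3585 to 3705 in WT TGF-β, 5342 to 6005 in KO control and 4384 to 4716 in KO TGF-β. Of 9 ependymal markers, 5 were called lower in WT and 3 in KO, and 7 in each passed the adjusted p alone. The ependymal sum was 429.1 to 480.6 CPM in WT control, 284.4 to 309.3 in WT TGF-β, 453.0 to 507.4 in KO control and 330.5 to 342.4 in KO TGF-β.

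Of 14 markers of meningeal fibroblasts, 7 were called higher in each genotype and 1 lower in WT, and 10 in WT and 8 in KO passed the adjusted p alone. The gene called lower in WT was DCN (-0.62), and FOXC1 (-0.42) and FOXD1 (-0.46) passed the adjusted p alone in WT, also lower. The summed level of the markers was 4403 to 5617 CPM in WT control, 9110 to 10320 in WT TGF-β, 3602 to 3816 in KO control and 6820 to 6935 in KO TGF-β. In WT TGF-β replicate 2, the collagen genes COL1A1, COL1A2 and COL3A1 alone had 4627, 3441 and 1326 CPM. COL1A1, one of the 7, is also on the list of TGF-β targets. Of 6 endothelial markers, 1 was called higher and 1 lower in WT and 1 higher and 2 lower in KO, with sums of 103.9 to 131.5 CPM in the control groups and 71.1 to 84.4 in the TGF-β groups. TIE1 and CLDN5 were not in the count table.

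Of 12 microglial markers, 0 were called by edgeR in either genotype, and none had an adjusted p under 0.05. Of 8 markers of the oligodendrocyte lineage, 1 was called higher and 2 lower in WT, and 2 higher and 2 lower in KO. Of 6 neuronal markers, 1 was called higher in WT, and 1 higher and 1 lower in KO. Of 10 proliferation genes, 0 were called in either genotype. By the adjusted p alone, 2 passed in WT and 1 in KO, against 4450 and 3835 of all 13509 genes tested. The proliferation sum was 338.0 to 368.4 CPM in WT control and 308.6 to 345.4 in WT TGF-β, and 321.9 to 350.7 in KO control and 272.7 to 303.1 in KO TGF-β.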

How the data were processed

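RNA of 8 libraries was sequenced by the authors, unstranded, and processed with STAR within the VIPER pipeline. The submitters' processing notes also name Cufflinks, DESeq and the build mm10, with no role or version. The authors deposited raw read counts for each gene symbol and a table of FPKM values, of which the second was used for levels per length and for alternatives. The program that counted the reads and the filter on genes are not given in the sources used here. Tables of the authors' own comparisons, holding log2 fold changes and p-values, were not used.

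The read counts were tested with edgeR 4.0.16 in R 4.3.3 (filterByExpr, TMM, quasi-likelihood test, a mean for each of the 4 groups over all 8 libraries, no block), with two-sided p-values adjusted over 13509 genes by Benjamini-Hochberg. A call needed an adjusted p under 0.05 and a log2 fold change of 0.6 or more in size. The procedure was tested on simulated data. Alternatives were DESeq2 1.42.0, limma 3.58.1 (voom, or FPKM with a pseudocount of 1 or 0.1 where at least 2 libraries had FPKM of 1 or more), edgeR on the 4 libraries of a comparison, RLE and upper quartile normalization, no filter, at least 10 counts in every library, the replicate block, and leaving out each library. SE is derived from the test statistic. Libraries held 14920561 to 18956038 counts (median 15857266). The p-values rest on the spread within groups of 2 libraries, estimated jointly over the 4 groups and with information from other genes.

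The ID genes and the gene lists around them were chosen with earlier results of these data known. Named genes are the ID genes, members of the lists, RGCC and the 3 genes nearest to each ID gene in pattern. Gene positions came from GENCODE M21 (GRCm38) and promoters from RefSeq (GRCm38.p6). Some list members are counted but not reported here by name.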

Additional observations from a re-analysis of the deposited data

How the results depend on the processing

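The calls of ID1, ID3 and ID4 in both genotypes and of ID2 in WT held under every alternative run, while ID2 in KO was called under 4. Over the alternatives other than leaving out a library, ID log2 fold changes ran from -0.93 to -0.80 (ID1), -0.83 to -0.75 (ID2), -1.26 to -1.15 (ID3) and -1.30 to -1.20 (ID4) in WT. Without 1 library they ran from -0.87 to -0.74, -0.80 to -0.70, -1.24 to -1.08 and -1.42 to -0.998. No ID gene was called between genotypes or in the interaction under any alternative.

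Signs changed only among ID values near 0. On the FPKM scale (pseudocounts 1 and 0.1) KO against WT in control became 0.0161 and 0.0161 for ID3 and 0.0283 and 0.0286 for ID4. Without 1 library the same comparison ran from -0.0139 to 0.0926 (ID1), -0.1104 to 0.0598 (ID3) and -0.2166 to 0.2186 (ID4), and the interaction from -0.0275 to 0.0976 (ID1) and -0.0648 to 0.3726 (ID4). Among E proteins, TCF4 in WT became -0.0626 with upper quartile normalization and -0.0811 and -0.0841 on the FPKM scale, with -0.0595 to 0.0901 without 1 library. TCF12 in WT became -0.0267, -0.0525 and -0.0542, and TCF3 in KO -0.1136 and -0.1192 on the FPKM scale.

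The share of the summed ID level, as a mean of 8 libraries, moved from 19.3% to 20.97% for ID1 and from 13.6% to 11.4% for ID4 when CPM per kilobase of the longest transcript replaced FPKM.

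Over all genes, upper quartile normalization turned the split of calls from 1043 higher and 763 lower to 857 and 1055 in WT, and from 893 and 666 to 747 and 895 in KO. FPKM with a pseudocount of 0.1 gave 612 and 1022, and 562 and 989. With a pseudocount of 1 it gave 514 and 589, and 457 and 577. The FPKM scale moved the median of all genes to between -0.11 and -0.13. Without WT TGF-β replicate 2 the WT calls were 714 and 486. Without KO control replicate 2 the KO calls were 712 and 388, and without KO TGF-β replicate 1 and 2 they were 814 and 393, and 617 and 436. Between genotypes, DESeq2 gave 6 higher and 7 lower in control (edgeR 4 and 1) and 12 and 22 with TGF-β (3 and 3), and leaving out 1 library left 0 to 3 calls in control and 0 to 6 with TGF-β. The cause of these shifts was not tested.

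The gap in log2 CPM between replicate 2 and replicate 1 of each group was compared between groups over all genes tested. These gaps correlated positively across genotypes within a treatment (0.491 and 0.253) and negatively across treatments (-0.507 to -0.343). The replicate numbers were therefore not taken as pairs across treatments. Within a treatment WT and KO shared part of the gap between replicates, which the main fit, without a block, counts as spread. For ID4, replicate 2 minus replicate 1 (log2) was 0.437 and 0.35 in WT and KO control. With TGF-β it was -0.232 and -0.226. With the replicate block, 4 ID genes were called in WT and 3 in KO, as without it, and all calls were 957 higher and 659 lower in WT and 814 and 555 in KO. A crossed replicate block, chosen after seeing the data, gave 1167 and 938 in WT and 1040 and 812 in KO. Between genotypes this crossed block gave 4 higher and 6 lower in control (main fit 4 and 1) and 11 and 25 with TGF-β (3 and 3). With 2 libraries in a group, small differences such as that of ID2 between genotypes are the ones that these data limit most.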
